A study of Homo sapiens with 12 samples.

Results

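The TCA cycle and fatty acid oxidation enzymes described here are 43 genes, taken by symbol from the 19907 genes listed in every library, and all 43 had levels high enough to be tested. Of these, 19 encode enzymes of the TCA cycle or of the entry and exit of its carbon, and 24 act in fatty acid activation and oxidation. RNA was sequenced from MDA-MB-231, a human triple-negative breast cancer line, after 18 h of serum starvation in 1% DCC medium and a further 6 h of treatment. The 4 groups were S134A-GR cells with 1 µM dexamethasone (Dex), S134A-GR cells with vehicle, WT-GR cells with 1 µM Dex and WT-GR cells with vehicle, each with 3 libraries. In S134A-GR a serine of the glucocorticoid receptor is replaced by alanine, and WT-GR is the wild-type receptor. The sources used here do not give how the receptors were introduced, whether a line is a single clone, or whether libraries within a group are from independent cultures. The p-values therefore describe the spread among these 12 libraries, part of which may be technical.

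The TCA cycle in the mitochondrial matrix oxidises acetyl-CoA to carbon dioxide and passes electrons to the respiratory chain, and several of its enzymes have cytosolic counterparts that move reducing power between compartments. Fatty acids enter oxidation after acyl-CoA synthetases couple them to coenzyme A. The carnitine shuttle then carries long chains into mitochondria, where repeated rounds of dehydrogenation, hydration, a second dehydrogenation and thiolysis release acetyl-CoA. Dex is a synthetic agonist of the glucocorticoid receptor, a transcription factor known for its control of fuel use in liver, muscle and fat. The series title names metabolic reprogramming through phosphorylation of the receptor at this serine.

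Each library held between 56.4 and 100.6 M recovered reads (M, mega). Lowest were WT-GR vehicle replicate 1 at 56.4 M and WT-GR Dex replicate 1 at 56.9 M, while all others held at least 82.4 M. The mesenchymal marker VIM, an intermediate filament, stood between 366469 and 431198 normalized counts in all 12 libraries, while the luminal markers ESR1 and CDH1 reached at most 5.66 and 17.1. The luminal transcription factor GATA3 was at 786 to 1574 normalized counts and the receptor gene ERBB2 at 8864 to 12005. The leukocyte gene PTPRC was at 0 to 18.3. Libraries varied most in the WT-GR Dex group, with a median SD over genes of 0.15 on the log2 scale, and least in S134A-GR vehicle, at 0.06. The Dex libraries carry gene names restored by line order, and every result in Dex rests on that.

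Levels per kilobase of merged exons spanned a wide range among the 43 genes. ACADVL, the very-long-chain acyl-CoA dehydrogenase, was highest at a mean of 14858 normalized counts per kilobase over the 12 libraries, followed by the short-chain enoyl-CoA hydratase ECHS1 at 12361 and HADHA, the alpha subunit of the trifunctional protein, at 8217. Among TCA cycle enzymes the mitochondrial malate dehydrogenase MDH2 led with 8056 per kilobase, and citrate synthase, CS, stood at 6655. The lowest were ME2, a mitochondrial malic enzyme, at 320 per kilobase, the peroxisomal bifunctional enzyme EHHADH at 347, and CPT2, the inner-membrane carnitine palmitoyltransferase, at 399. This order depends on the annotated exon length, which was longest for ME2 at 9575 bases. Before division by length ME2 had 2581 to 3195 normalized counts, above CPT2 at 1168 to 1436. Together the 43 genes took 0.438 ± 0.00355% of normalized counts in S134A-GR Dex, 0.437 ± 0.00314% in S134A-GR vehicle, 0.453 ± 0.00937% in WT-GR Dex and 0.453 ± 0.00499% in WT-GR vehicle libraries (SD, n = 3 each). Whole-cell RNA does not separate fewer cells of a kind from less RNA per cell, which cannot be told apart here.

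With Dex the enzymes as a group moved little, and among the 43 the largest response in both genotypes was in fatty acid activation. ACSL1, an acyl-CoA synthetase that couples long-chain fatty acids to coenzyme A, rose 1.41-fold with Dex in S134A-GR cells and 1.85-fold in WT-GR cells. CPT1A, a carnitine shuttle gene outside the 43, rose more than ACSL1 in S134A-GR cells, as given below. ACSL3, a synthetase of the endoplasmic reticulum and lipid droplets, and OGDH, a subunit of the 2-oxoglutarate dehydrogenase complex, rose more weakly in both. ACO1, the cytosolic aconitase that also serves as iron regulatory protein, fell in both. In all, limma called 6 of 43 genes in S134A-GR cells (14.0%, 5 higher and 1 lower) and 9 of 43 in WT-GR cells (20.9%, 8 higher and 1 lower) at a Benjamini-Hochberg adjusted p under 0.05. Over all 15957 genes tested, 15.7% were called in S134A-GR cells and 27.9% in WT-GR cells, so neither share of the enzymes was above that of all genes. Fitted on only the compared groups, 7 enzymes were called in S134A-GR cells and 4 in WT-GR cells, beside 3439 and 2490 of all genes. Which genotype had more calls therefore depended on the libraries in the fit. By direction, 7.99% of all genes were called higher and 7.76% lower in S134A-GR cells, and 13.9% and 14.0% in WT-GR cells. With libraries scaled to equal totals, the enzymes split into 2 higher and 2 lower in S134A-GR cells and 5 higher and 7 lower in WT-GR cells, so the balance towards higher calls depends on the scaling. That scaling lost the calls of ACSL3, ACSL5 and DLST in S134A-GR cells (limma adjusted p = 0.0781 to 0.114) and of PC, IDH3B and HSD17B10 in WT-GR cells (limma adjusted p = 0.0658 to 0.124). Of the 43 enzymes, 3 were called higher in both genotypes and 1 lower in both, while 5.79% and 5.31% of all genes were. Values did not overlap between Dex and vehicle for 13 enzymes in S134A-GR cells and 14 in WT-GR cells, beside 38.6% and 35.1% of all genes. The median absolute log2 difference of the enzymes was 0.05 in S134A-GR cells and 0.10 in WT-GR cells, beside 0.13 and 0.19 over all genes.

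ACSL1 (chromosome 4, 184755595 to 184826818, minus strand, GRCh38) had 6604, 5922 and 5877 normalized counts in the S134A-GR Dex libraries, against 4389, 4554 and 4121 in S134A-GR vehicle. It had 8367, 8179 and 8889 in WT-GR Dex, against 4598, 4654 and 4528 in WT-GR vehicle. Every Dex library lay above every vehicle library of its genotype, and the 3 WT-GR Dex values lay above the 3 S134A-GR Dex values. The log2 difference with Dex was 0.49 ± 0.06 (SE) in S134A-GR cells (limma adjusted p = 2.14e-05) and 0.88 ± 0.06 in WT-GR cells (limma adjusted p = 5.745e-08). In the absence of Dex its level did not differ detectably between genotypes, with a log2 difference of -0.08 ± 0.06 (limma adjusted p = 0.269).

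ACSL3 (chromosome 2, 222860934 to 222944639, plus strand) had 14230, 13748 and 13119 normalized counts in S134A-GR Dex, against 11304, 12570 and 11581 in S134A-GR vehicle. In WT-GR Dex it had 20275, 21006 and 23899, against 17589, 18758 and 17189 in WT-GR vehicle. Dex and vehicle values did not overlap in either genotype, and all S134A-GR values lay below all WT-GR values. Its log2 difference with Dex was 0.21 ± 0.06 in S134A-GR cells (limma adjusted p = 0.0353) and 0.28 ± 0.06 in WT-GR cells (limma adjusted p = 0.0053). The call in S134A-GR cells was lost in 4 of the 12 fits that left out 1 library each, those without S134A-GR Dex replicate 1 or 2 or without replicate 1 or 3 of S134A-GR vehicle (limma adjusted p = 0.0967 to 0.152).

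Of the other 2 synthetases, 1 passed the test. ACSL5, which is also found at mitochondria, had 12614, 12298 and 12792 normalized counts in S134A-GR Dex, against 11244, 11691 and 11424 in S134A-GR vehicle, with no overlap. Its log2 difference was 0.13 ± 0.04 in S134A-GR cells (limma adjusted p = 0.0322) and 0.07 ± 0.04 in WT-GR cells (limma adjusted p = 0.214). The call was lost without WT-GR vehicle replicate 2 or any 1 of the 6 S134A-GR libraries (limma adjusted p = 0.0516 to 0.139). ACSL4, which prefers arachidonic acid, passed the test in no comparison, with log2 differences with Dex of -0.04 in S134A-GR cells and -0.19 in WT-GR cells (limma adjusted p = 0.873 and 0.106). With libraries scaled to equal totals, however, ACSL4 was called lower with Dex in WT-GR cells. Per kilobase, the share of ACSL1 in the summed level of the 4 synthetases was 11.6 ± 0.362% in S134A-GR Dex, 9.03 ± 0.347% in S134A-GR vehicle, 12.9 ± 0.490% in WT-GR Dex and 7.69 ± 0.218% in WT-GR vehicle. The share of ACSL4 was 31.5 ± 0.714%, 35.4 ± 0.187%, 24.5 ± 1.31% and 30.9 ± 1.92% in the same 4 groups (SD, n = 3 each), and ACSL1 remained the lowest of the 4 in each group.

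**Figure D1:**
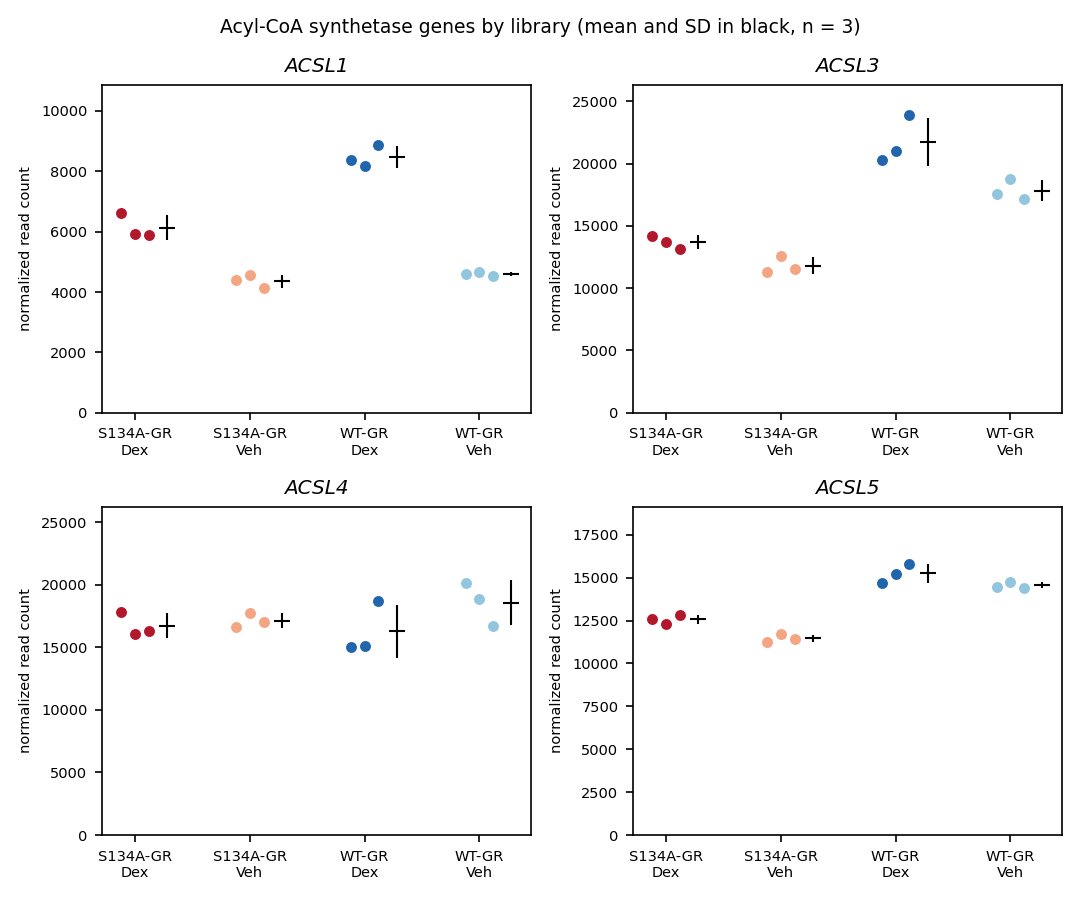
Normalized read counts of the 4 acyl-CoA synthetase genes in each of the 12 libraries (coloured points), with the mean and SD of each group in black (n = 3). ACSL1 was at 5877 to 6604 in S134A-GR Dex and 8179 to 8889 in WT-GR Dex, above all vehicle libraries, while ACSL4 overlapped between the groups.

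The start regions of the genes called with Dex in both genotypes are printed to show what sequence lies there, from 250 bases before to 50 after a start in RefSeq (GRCh38.p14). A window was found for ACSL1, ACSL3 and ACO1. ACSL1 has 5 starts in the table. Given here are 2 of its windows, the first listed and a later one picked because it holds the receptor half-site. They are chr4:184825919-184826218 and, further along the gene, chr4:184812202-184812501, both on the minus strand. ACSL3 is shown at chr2:222860786-222861085 (plus strand) and ACO1 at chr9:32384393-32384692 (plus strand). Capitals mark the receptor half-site AGAACA on either strand, here read as TGTTCT.
ACSL1 upstream start: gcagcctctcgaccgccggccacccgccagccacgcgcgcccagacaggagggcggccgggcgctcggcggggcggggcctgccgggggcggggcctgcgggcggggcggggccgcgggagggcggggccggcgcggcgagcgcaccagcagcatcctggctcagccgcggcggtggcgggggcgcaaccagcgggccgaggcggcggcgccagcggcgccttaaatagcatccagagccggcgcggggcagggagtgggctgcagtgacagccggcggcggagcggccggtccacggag
ACSL1 downstream start: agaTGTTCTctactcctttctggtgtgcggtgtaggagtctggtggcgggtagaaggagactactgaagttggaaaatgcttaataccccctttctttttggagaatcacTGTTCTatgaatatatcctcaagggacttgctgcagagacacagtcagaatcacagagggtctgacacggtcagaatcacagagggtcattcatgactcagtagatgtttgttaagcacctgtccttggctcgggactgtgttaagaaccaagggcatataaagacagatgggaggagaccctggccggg
ACSL3: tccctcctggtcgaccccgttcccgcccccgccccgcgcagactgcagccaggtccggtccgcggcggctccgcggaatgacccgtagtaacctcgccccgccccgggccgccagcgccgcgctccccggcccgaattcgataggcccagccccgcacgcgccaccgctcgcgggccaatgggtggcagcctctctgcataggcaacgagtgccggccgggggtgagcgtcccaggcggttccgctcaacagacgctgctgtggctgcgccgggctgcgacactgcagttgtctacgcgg
ACO1: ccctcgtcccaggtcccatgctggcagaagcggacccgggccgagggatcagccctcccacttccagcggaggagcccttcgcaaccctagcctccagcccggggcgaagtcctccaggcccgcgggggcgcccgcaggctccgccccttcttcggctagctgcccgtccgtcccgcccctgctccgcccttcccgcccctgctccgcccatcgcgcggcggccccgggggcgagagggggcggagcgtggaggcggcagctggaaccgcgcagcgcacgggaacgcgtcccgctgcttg
The downstream window of ACSL1 was picked for its half-site, so the match there was fixed in advance. The other 3 windows, each the first listed for its gene, did not hold it. Among all 35116 windows of this length, 14.8% held it on either strand, and 7 of the 54 windows of the 38 enzymes that could be matched did so (13%). The full palindrome, AGAACA and TGTTCT with 3 bases between them, was in 1 of the 35116 windows and in 0 of the 54. A match of letters is a description of the window and does not show binding.

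Among TCA cycle enzymes, OGDH (chromosome 7, 44606572 to 44709066, plus strand) had 18799, 20505 and 20540 normalized counts in S134A-GR Dex, against 17378, 16865 and 17186 in S134A-GR vehicle. In WT-GR Dex it had 22812, 21074 and 20952, against 19066, 18594 and 17478 in WT-GR vehicle. Dex values lay above vehicle values in both genotypes. Its log2 differences were 0.22 ± 0.05 in S134A-GR cells and 0.23 ± 0.05 in WT-GR cells (limma adjusted p = 0.00779 and 0.00373), and both calls were kept in all 12 fits that left out 1 library. DLST, the succinyltransferase of the same complex, rose by 0.12 ± 0.04 in S134A-GR cells (limma adjusted p = 0.034), and was at 0.08 ± 0.04 in WT-GR cells (limma adjusted p = 0.114). Its call, too, was lost without WT-GR vehicle replicate 2 or any 1 of the 6 S134A-GR libraries (limma adjusted p = 0.0542 to 0.136). DLD, the shared dihydrolipoamide dehydrogenase, was at 0.01 in S134A-GR cells and -0.13 in WT-GR cells (limma adjusted p = 0.918 and 0.0733).

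ACO1 (chromosome 9, 32384603 to 32454769, plus strand) had 13313, 13298 and 13485 normalized counts in S134A-GR Dex, against 14945, 15059 and 15271 in S134A-GR vehicle. It had 13946, 12811 and 14561 in WT-GR Dex, against 16361, 15981 and 14749 in WT-GR vehicle. The groups did not overlap in either genotype, although in WT-GR cells the nearest values stood at 14561 and 14749. The log2 differences were -0.18 ± 0.05 in S134A-GR cells (limma adjusted p = 0.0315) and -0.19 ± 0.05 in WT-GR cells (limma adjusted p = 0.0143). The call in S134A-GR cells was lost without any 1 of the 6 S134A-GR libraries (limma adjusted p = 0.0759 to 0.109), and that in WT-GR cells without WT-GR Dex replicate 2 or WT-GR vehicle replicate 1 or 2 (limma adjusted p = 0.0604 to 0.0624). The NADP+-dependent isocitrate dehydrogenases IDH1, in the cytosol, and IDH2, in mitochondria, passed the test in neither genotype. Their log2 differences were -0.05 and -0.18 in S134A-GR cells (limma adjusted p = 0.521 and 0.0617). In WT-GR cells they were -0.11 and 0.05 (limma adjusted p = 0.0639 and 0.529). Near the threshold, IDH2 in S134A-GR cells and IDH1 in WT-GR cells were called lower by DESeq2 and with libraries scaled to equal totals. The malic enzymes ME1, in the cytosol, and ME2 likewise did not pass, at 0.05 and 0.01 in S134A-GR cells and -0.14 and -0.10 in WT-GR cells. With equal totals ME1 was called lower in WT-GR cells. CPT2 was at -0.12 in S134A-GR cells and 0.01 in WT-GR cells (limma adjusted p = 0.264 and 0.927).

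In WT-GR cells 5 further enzymes rose, and their calls depended on single libraries. They were ETFB, the beta subunit of the flavoprotein that takes electrons from acyl-CoA dehydrogenases, ECI1, which shifts double bonds of unsaturated chains, HSD17B10, a mitochondrial hydroxyacyl-CoA dehydrogenase, PC, the pyruvate carboxylase that refills oxaloacetate, and IDH3B, a subunit of the NAD+-dependent isocitrate dehydrogenase. ETFB had 7476, 6698 and 5691 normalized counts in WT-GR Dex, against 5080, 4982 and 5197 in WT-GR vehicle. ECI1 had 4932, 4183 and 4007 in WT-GR Dex, against 3505, 3431 and 3783 in WT-GR vehicle. HSD17B10 had 7134, 6937 and 5935 in WT-GR Dex, against 5581, 5516 and 5837 in WT-GR vehicle. For all 3 genes the groups did not overlap, WT-GR Dex replicate 1 was highest and replicate 3 lay nearest to vehicle.

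The log2 differences in WT-GR cells were 0.37 ± 0.10 for ETFB (limma adjusted p = 0.0125), 0.29 ± 0.08 for ECI1 (limma adjusted p = 0.0222) and 0.24 ± 0.07 for HSD17B10 (limma adjusted p = 0.0219). PC was at 0.23 and IDH3B at 0.18 (limma adjusted p = 0.0494 and 0.0233). In S134A-GR cells the same 5 genes were at -0.05, 0.10, 0.02, 0.01 and 0.01, and none passed. Without WT-GR Dex replicate 1, ETFB was at limma adjusted p = 0.0563 and all 5 lost their call in WT-GR cells, and 4 enzymes were called, 3 higher (ACSL1, ACSL3 and OGDH) and 1 lower. Without WT-GR vehicle replicate 1 or 2, 4 were called in each case, all higher. Without WT-GR Dex replicate 3, 17 were called (12 higher and 5 lower). ECI1, HSD17B10, PC and IDH3B also lost their call without WT-GR vehicle replicate 1 or 2, HSD17B10 and IDH3B without WT-GR Dex replicate 2, and PC without any 1 of 6 further libraries, with limma adjusted p up to 0.193. ACSL1, ACSL3 and OGDH were the 3 of 9 calls kept in all 12 fits that left out 1 library.

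The GC content of the longest annotated protein-coding transcript of each gene was set beside these differences. That transcript need not be the one expressed in these cells. The 5 genes have 48.7% (ETFB), 61.4% (ECI1), 57.6% (HSD17B10), 61.1% (PC) and 54.6% GC (IDH3B), within a range of 37.4% (ACSL4) to 64.6% (ACADS) over the 43. Across the 43 genes, the Pearson correlation of GC content with the log2 difference between a library and the WT-GR vehicle mean was 0.65 for WT-GR Dex replicate 1, 0.43 for replicate 2 and -0.02 for replicate 3. For the mean response it was -0.22 in S134A-GR cells and 0.43 in WT-GR cells, beside -0.03 and 0.20 over the 13514 tested genes with a GC value. These correlations run across genes that share libraries, and the part of GC content in the calls was not tested. The genes called with Dex in both genotypes were at 45.1% GC (ACSL1), 38.1% (ACSL3), 56.3% (OGDH) and 45.7% (ACO1).

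**Figure D2:**
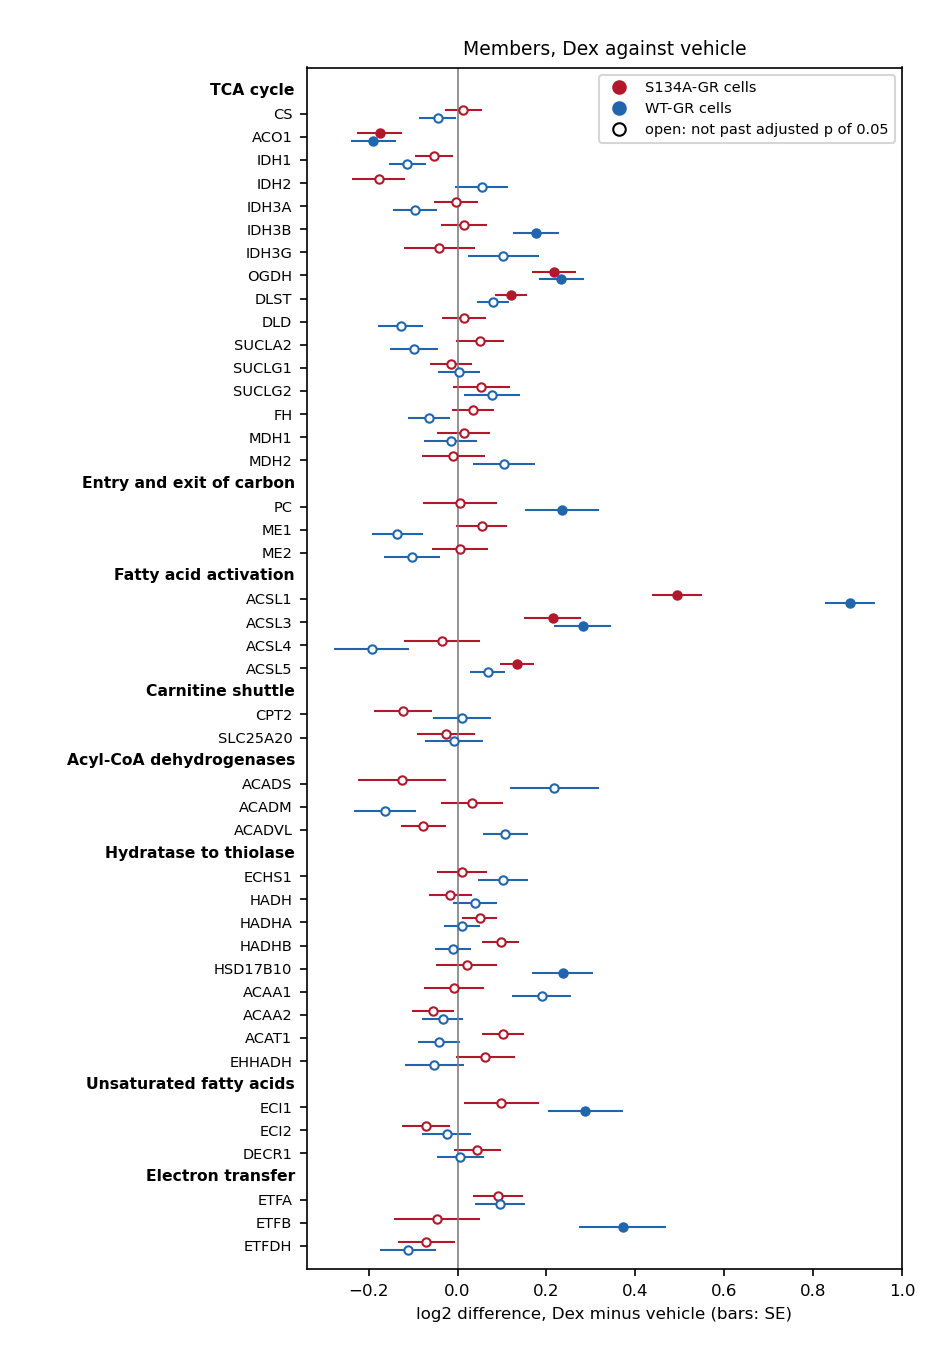
The log2 difference between Dex and vehicle of each of the 43 enzymes, grouped by role, in S134A-GR cells (red) and WT-GR cells (blue); bars are standard errors and filled points passed an adjusted p of 0.05. ACSL1 stood apart at 0.49 and 0.88, and most other points lay within 0.3 of 0.

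No enzyme passed the test of the difference between the Dex responses of S134A-GR and WT-GR cells. Over all genes limma called 66 of 15957 (0.414%) for this difference. At an unadjusted p under 0.05 there were 9 of the 43 enzymes, which is 20.9%, beside 17.5% of all genes. They were the TCA cycle genes IDH2, IDH3B and ME1 and the fatty acid genes ACSL1, ACADS, ACADVL, HSD17B10, ACAT1 and ETFB. edgeR with TMM scaling also called 0 enzymes, and DESeq2 called 1, ACSL1. Across the 43 genes the difference of responses correlated with GC content at r = -0.69, beside -0.28 over all tested genes with a GC value, and the part of GC content in it was not tested.

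ACSL1 lay nearest to the threshold. Its response in S134A-GR cells minus that in WT-GR cells was -0.39 ± 0.08 (SE) on the log2 scale (limma adjusted p = 0.0614). The estimate was negative in all 23 alternative fits, from -0.44 to -0.35, and passed the threshold in 6 of them, with adjusted p from 0.00123 to 0.185 over the 23. Among the 6 were the fits without WT-GR Dex replicate 3 (-0.36, limma adjusted p = 0.0282) and without S134A-GR Dex replicate 1 (-0.44, limma adjusted p = 0.0334). The estimate for ETFB was -0.42 ± 0.14 (limma adjusted p = 0.19) and that for IDH2 was -0.23 ± 0.08 (limma adjusted p = 0.214). ME2 stood at 0.11 and CPT2 at -0.13 (limma adjusted p = 0.535 and 0.455). For ACSL3, ACSL4 and ACSL5 the differences were -0.07, 0.16 and 0.07, with limma adjusted p = 0.717, 0.5 and 0.543.

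The genotypes differed at many more of these enzymes than the treatments did. Receptor form and any other difference between the WT-GR and S134A-GR cells cannot be told apart here. In Dex, 26 of 43 differed between S134A-GR and WT-GR cells (60.5%, 6 higher and 20 lower), and in vehicle also 26 (60.5%, 10 higher and 16 lower). Over all genes, 49.7% were called in Dex and 50.5% in vehicle. Lower calls were made for 26.3% of all genes in Dex and 26.7% in vehicle, and higher calls for 23.4% and 23.8%. The median log2 difference of the enzymes was -0.13 in Dex and -0.08 in vehicle, beside 0.01 over all genes in each. Their median absolute log2 difference was 0.196 in Dex and 0.214 in vehicle, beside 0.278 and 0.286 over all genes. The higher share of calls thus did not go with larger differences, and all genes tested include genes of low level. Libraries scaled to equal totals moved the median of all genes to 0.13 in Dex and 0.09 in vehicle, and the calls then split into 10 higher and 16 lower in Dex and 13 higher and 14 lower in vehicle. The comparisons in Dex and in vehicle use different libraries, and 21 enzymes were called in both, 6 higher and 15 lower, with 0 in opposite directions, where 16.7% and 20% of all genes were called higher or lower in both. Values did not overlap between genotypes for 28 enzymes in Dex and 33 in vehicle, beside 52.4% and 64.3% of all genes. The correlation of the genotype difference with GC content across the 43 genes was 0.14 in Dex and 0.45 in vehicle, beside 0.01 and 0.15 over all tested genes with a GC value, and its part in the calls was not tested.

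The succinyl-CoA ligase step was lower in S134A-GR cells at all of its 3 subunit genes. SUCLA2, the ATP-forming beta subunit (chromosome 13, 47745736 to 48037968, minus strand), had 1792, 1659 and 1636 normalized counts in S134A-GR Dex, against 2713, 2747 and 2817 in WT-GR Dex. In vehicle it had 1606, 1683 and 1624 in S134A-GR cells, against 2861, 2969 and 3037 in WT-GR cells. The genotypes did not overlap in either treatment. Its log2 differences were -0.70 ± 0.05 in Dex and -0.85 ± 0.05 in vehicle (limma adjusted p = 2.66e-07 and 4.4e-08), the largest of the 43 enzymes in both. SUCLG1, the shared alpha subunit, was lower, with a log2 difference of -0.50 in Dex and -0.48 in vehicle (limma adjusted p = 1.75e-06 and 2.3e-06), and SUCLG2, the GTP-forming beta subunit, also, at -0.33 and -0.31 (limma adjusted p = 0.000714 and 0.00116). The log2 ratio of SUCLA2 to SUCLG2 in normalized counts, not corrected for length, was -2.44 ± 0.01 in S134A-GR Dex against -2.07 ± 0.11 in WT-GR Dex, and in vehicle -2.44 ± 0.02 in S134A-GR cells against -1.90 ± 0.02 in WT-GR cells (SD, n = 3 each).

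The start region of SUCLA2, the enzyme with the largest genotype difference, is printed from RefSeq at chr13:48001224-48001523 (GRCh38.p14, minus strand). Capitals mark the receptor half-site (TGTTCT), the estrogen-related receptor motif AAGGTCA and the NRF1 motif (GCGCA, any base, then GCGC), here on its reverse strand.
SUCLA2: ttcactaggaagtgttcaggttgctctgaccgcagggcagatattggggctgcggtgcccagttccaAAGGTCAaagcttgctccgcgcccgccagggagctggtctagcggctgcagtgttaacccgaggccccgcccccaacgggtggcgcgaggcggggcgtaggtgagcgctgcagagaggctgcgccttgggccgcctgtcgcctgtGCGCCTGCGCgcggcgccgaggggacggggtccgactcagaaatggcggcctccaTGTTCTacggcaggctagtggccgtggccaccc
The motif AAGGTCA was in 3.92% of all windows and, among the enzymes, in that of SUCLA2. The NRF1 motif was in 5.78% of all windows and in those of SUCLA2, IDH3A, ETFB and IDH3G. These matches are a description of the letters in the window.

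The 2 isocitrate dehydrogenases that use NADP+ moved in opposite directions between genotypes. IDH1 (chromosome 2, 208236227 to 208266074, minus strand) had 7553, 7486 and 7491 normalized counts in S134A-GR Dex, against 10552, 10734 and 11304 in WT-GR Dex. In vehicle it had 7619, 8151 and 7609 in S134A-GR cells, against 11541, 11973 and 11716 in WT-GR cells. The genotypes were far apart in each treatment. The log2 differences were -0.53 ± 0.04 in Dex and -0.59 ± 0.04 in vehicle (limma adjusted p = 3.85e-07 and 1.395e-07).

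IDH2 averaged 4324 ± 109 in S134A-GR Dex against 3800 ± 317 in WT-GR Dex, and in vehicle 4892 ± 132 in S134A-GR cells against 3652 ± 148 in WT-GR cells (SD, n = 3 each). Its log2 differences were 0.19 ± 0.06 in Dex and 0.42 ± 0.06 in vehicle (limma adjusted p = 0.0176 and 5.845e-05). Among the fits that left out 1 library, the difference in Dex was no longer called without S134A-GR Dex replicate 2 or WT-GR Dex replicate 3 (limma adjusted p = 0.0615 to 0.0648). The log2 ratio of IDH1 to IDH2 in normalized counts was 0.80 ± 0.04 in S134A-GR Dex against 1.52 ± 0.17 in WT-GR Dex, and in vehicle 0.67 ± 0.05 in S134A-GR cells against 1.69 ± 0.06 in WT-GR cells. Of the subunits of the NAD+-dependent enzyme, IDH3A passed in neither treatment, IDH3B was lower in Dex (-0.21) and IDH3G was higher in vehicle (0.25), with limma adjusted p = 0.00464 and 0.0192. With libraries scaled to equal totals IDH3B was at -0.09 in Dex and lost its call (limma adjusted p = 0.16).

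The cytosolic enzymes MDH1 and ME1 were lower in S134A-GR cells, but cytosolic ACO1 passed in neither treatment. ACO1 was at -0.041 in Dex and -0.055 in vehicle (limma adjusted p = 0.525 and 0.39). The cytosolic malate dehydrogenase MDH1 was at -0.44 ± 0.06 in Dex and -0.47 ± 0.06 in vehicle (limma adjusted p = 4.36e-05 and 2.32e-05), whereas mitochondrial MDH2 was at -0.13 and -0.01 and passed in neither (limma adjusted p = 0.149 and 0.886). ME1, which makes NADPH from malate, was at -0.34 ± 0.06 in Dex and -0.53 ± 0.06 in vehicle (limma adjusted p = 0.000245 and 5.45e-06), and ME2 at 0.11 and 0.00 (limma adjusted p = 0.163 and 0.987). Among the enzymes of the cycle itself, CS and DLST were higher in S134A-GR cells whichever the treatment, by log2 differences of 0.20 and 0.24 in Dex and 0.14 and 0.20 in vehicle. DLD was lower, at -0.26 in Dex and -0.40 in vehicle, and OGDH, at -0.12 and -0.10, did not pass (limma adjusted p = 0.0693 and 0.113). PC was lower in Dex at -0.42 ± 0.08 (limma adjusted p = 0.000956) and stood at -0.19 in vehicle (limma adjusted p = 0.0768).

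In fatty acid activation, ACSL3 and ACSL5 were lower in S134A-GR cells with and without Dex. ACSL3, with the values given above, differed by -0.66 ± 0.06 in Dex and -0.60 ± 0.06 in vehicle (limma adjusted p = 2e-06 and 5.14e-06). ACSL5 differed by -0.28 ± 0.04 in Dex and -0.34 ± 0.04 in vehicle (limma adjusted p = 5.88e-05 and 8.72e-06). ACSL1 was lower in Dex, at -0.47 ± 0.06 (limma adjusted p = 1.53e-05), and ACSL4, at 0.05 in Dex and -0.11 in vehicle, passed in neither (limma adjusted p = 0.678 and 0.292). In the carnitine shuttle, CPT2 was at 0.01 and 0.14 (limma adjusted p = 0.93 and 0.086) and the carnitine-acylcarnitine carrier SLC25A20 at -0.10 and -0.08, and neither passed.

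**Figure D3:**
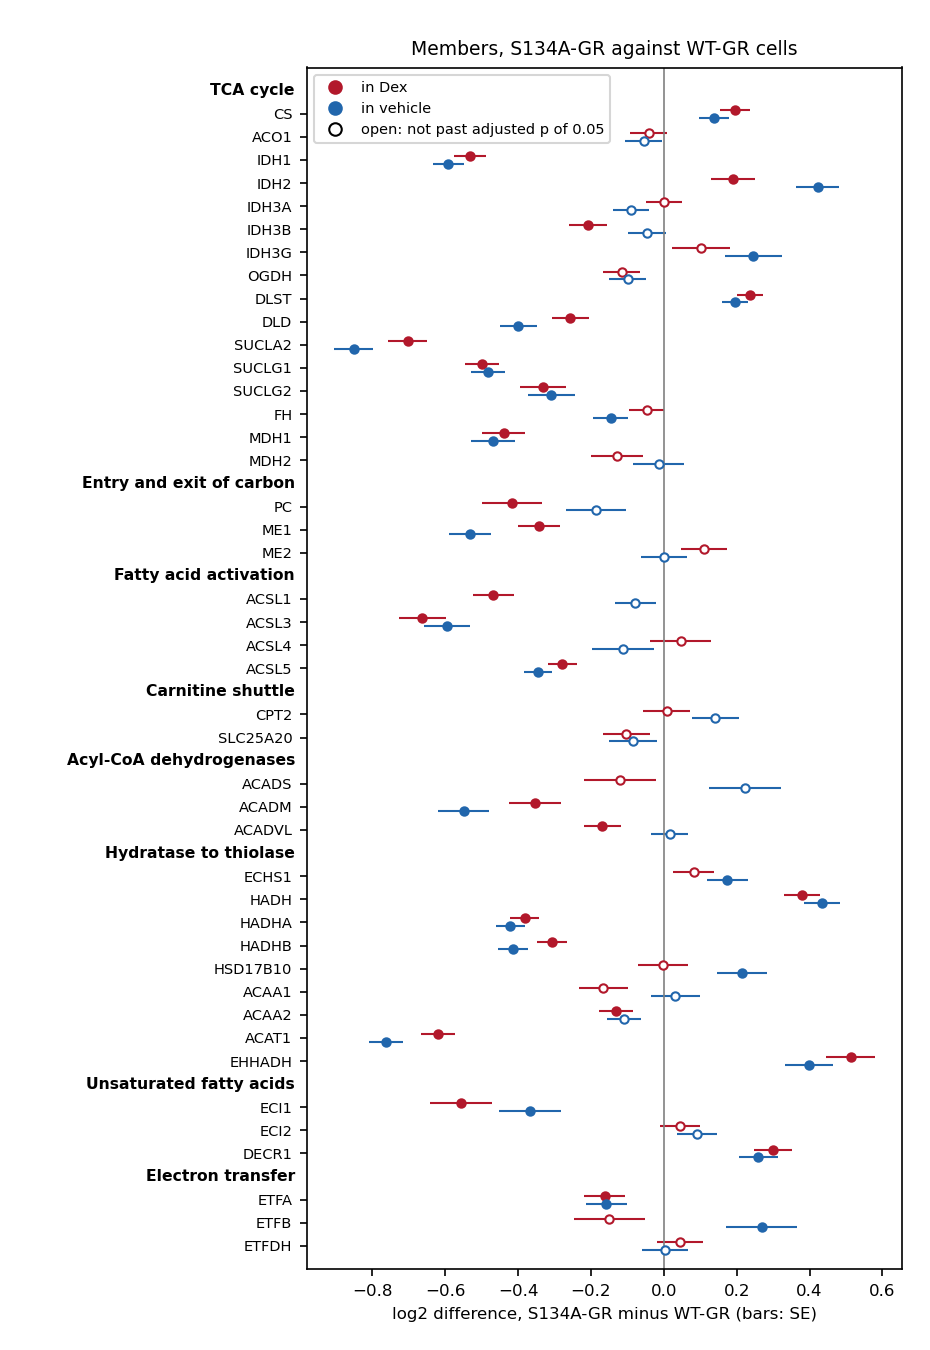
The log2 difference between S134A-GR and WT-GR cells of each of the 43 enzymes, grouped by role, in Dex (red) and in vehicle (blue); bars are standard errors and filled points passed an adjusted p of 0.05. SUCLA2 and ACAT1 lay below -0.60 in both treatments and ACSL3 close to them, while HADH and EHHADH were higher, at 0.38 to 0.51.

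Within mitochondrial beta-oxidation the genotype differences ran both ways. ACAT1, the thiolase that acts on acetoacetyl-CoA in ketone body and isoleucine metabolism (chromosome 11, 108121516 to 108147776, plus strand), had 6144, 6039 and 5824 normalized counts in S134A-GR Dex, against 8792, 9160 and 9722 in WT-GR Dex. In vehicle it had 5459, 5642 and 5667 in S134A-GR cells, against 9292, 9371 and 9810 in WT-GR cells. The genotypes did not overlap in either treatment. The log2 differences were -0.62 ± 0.05 in Dex and -0.76 ± 0.05 in vehicle (limma adjusted p = 2.3e-07 and 3e-08).

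ACADM, the medium-chain acyl-CoA dehydrogenase, had 4385, 4088 and 4205 in S134A-GR Dex, against 4920, 5138 and 6219 in WT-GR Dex. In vehicle it had 4153, 4079 and 4158 in S134A-GR cells, against 6074, 6030 and 6028 in WT-GR cells. Again the genotypes did not overlap, and the log2 differences were -0.35 ± 0.07 in Dex and -0.55 ± 0.07 in vehicle (limma adjusted p = 0.000952 and 2.48e-05). ACADVL was lower in Dex at -0.17 (limma adjusted p = 0.0143), but at -0.05 with libraries scaled to equal totals, where the call was lost (limma adjusted p = 0.428). It stood at 0.02 in vehicle, and the short-chain enzyme ACADS passed in neither.

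ECI1 had 2698, 3145 and 3064 in S134A-GR Dex, against 4932, 4183 and 4007 in WT-GR Dex, with no overlap. Its log2 differences were -0.56 ± 0.08 in Dex and -0.37 ± 0.08 in vehicle (limma adjusted p = 0.000111 and 0.00252). The related isomerase ECI2 passed in neither treatment, and DECR1, a reductase of unsaturated chains, was higher by 0.30 in Dex and 0.26 in vehicle (limma adjusted p = 0.000363 and 0.000995).

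HADHA and HADHB, the subunits of the trifunctional protein that carries out the last steps for long chains, were lower together. HADHA averaged 22616 ± 640 in S134A-GR Dex against 29468 ± 1289 in WT-GR Dex, and in vehicle 21844 ± 136 in S134A-GR cells against 29244 ± 412 in WT-GR cells. HADHB averaged 8419 ± 315 in S134A-GR Dex against 10416 ± 301 in WT-GR Dex, and in vehicle 7871 ± 84.3 in S134A-GR cells against 10490 ± 142 in WT-GR cells (SD, n = 3 each). Their log2 differences were -0.38 and -0.31 in Dex and -0.42 and -0.41 in vehicle. The annotated spans of these neighbouring genes overlap (chromosome 2, 26190635 to 26244726 on the minus strand and 26243170 to 26290468 on the plus strand), and since the sources used here do not say that counting used strand, some of their reads cannot be told apart.

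HADH, the hydroxyacyl-CoA dehydrogenase for shorter chains, went the other way, at 4083 ± 136 in S134A-GR Dex against 3140 ± 145 in WT-GR Dex, and in vehicle 4127 ± 60.0 in S134A-GR cells against 3055 ± 72.5 in WT-GR cells. Its log2 differences were 0.38 ± 0.05 in Dex and 0.43 ± 0.05 in vehicle (limma adjusted p = 3.03e-05 and 8.81e-06). EHHADH, which joins hydratase and dehydrogenase activity in peroxisomes, was at 1821 ± 132 in S134A-GR Dex against 1274 ± 31.5 in WT-GR Dex, and in vehicle 1743 ± 87.9 in S134A-GR cells against 1321 ± 37.7 in WT-GR cells. Its log2 differences were 0.51 ± 0.07 in Dex and 0.40 ± 0.07 in vehicle (limma adjusted p = 3.05e-05 and 0.000237). Of the electron transfer flavoprotein, ETFA was lower, at -0.16 in each treatment, although the genotypes overlapped in Dex. With libraries scaled to equal totals ETFA was at -0.05 in Dex and -0.08 in vehicle and lost both calls (limma adjusted p = 0.565 and 0.305). ETFB was higher in vehicle (0.27, limma adjusted p = 0.0345) and stood at -0.15 in Dex (limma adjusted p = 0.22).

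**Figure D4:**
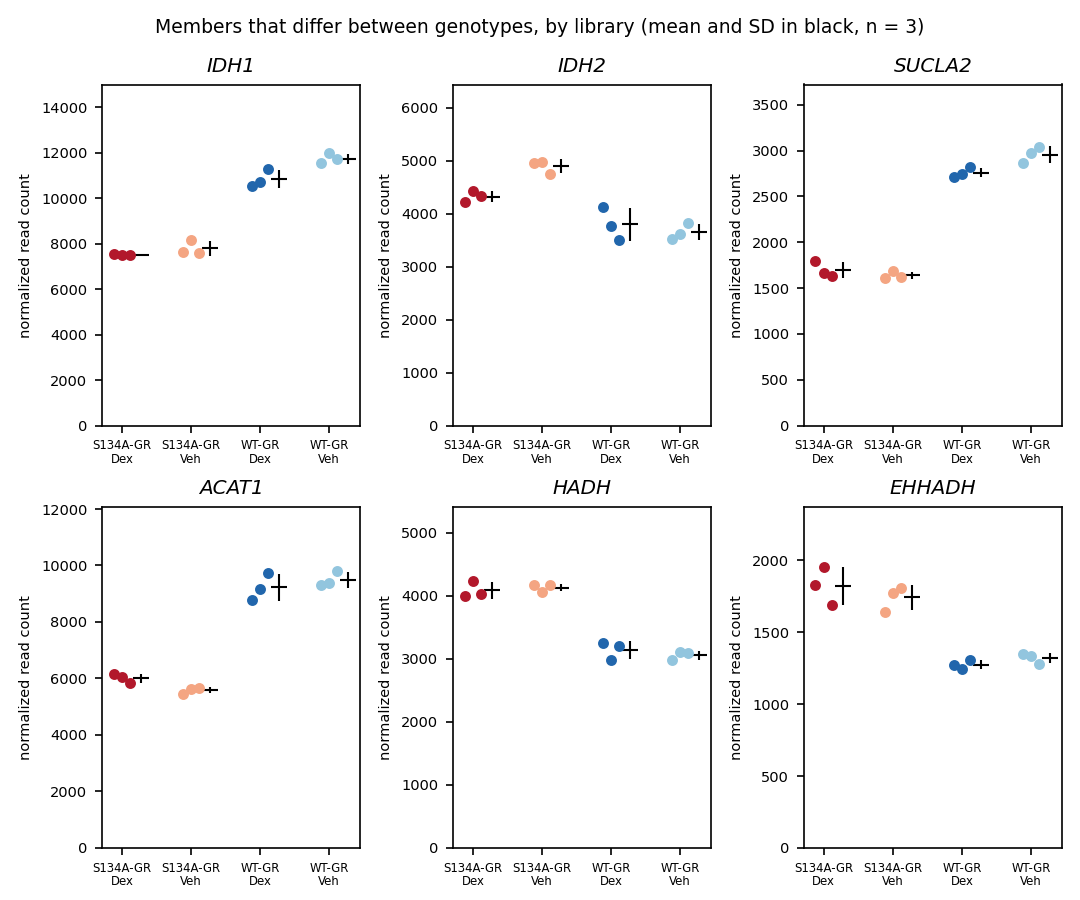
Normalized read counts of 6 enzymes that differed between the genotypes in both treatments, in each of the 12 libraries (coloured points), with the mean and SD of each group in black (n = 3). IDH1, SUCLA2 and ACAT1 were lower and HADH and EHHADH higher in all S134A-GR libraries, while IDH2 was higher by a smaller margin in Dex.

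Across settings, 22 of the 26 genotype calls in Dex and 19 of the 26 in vehicle were kept in all 12 fits that left out 1 library, and 22 and 24 were kept with libraries scaled to equal totals. The calls lost with equal totals were those of IDH3B, ACADVL, ACAA2 and ETFA in Dex (limma adjusted p = 0.16 to 0.841) and of FH and ETFA in vehicle (limma adjusted p = 0.315 and 0.305). In Dex, the calls of IDH2, ACADVL, ACAA2 and ETFA were lost without 1 of 2 to 4 libraries of the compared groups (limma adjusted p = 0.0509 to 0.116). In vehicle, those of CS, IDH3G, FH, ECHS1, HSD17B10, ETFA and ETFB were lost without 1 of 2 to 5 such libraries (limma adjusted p = 0.0518 to 0.127). In the limma fit of the deposited values over all 12 libraries, 10 enzymes were called in none of the 5 comparisons. They were IDH3A, MDH2, ME2, ACSL4, CPT2, SLC25A20, ACADS, ACAA1, ECI2 and ETFDH.

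The genotype differences of these enzymes tended to run with those of the genes around them, with exceptions. For each enzyme the median log2 difference was taken over the other tested genes within 5 Mb, of which there were 14 to 235. Across the 43 enzymes, the Pearson correlation between an enzyme and its neighbours was 0.64 in Dex and 0.74 in vehicle, beside 0.23 and 0.28 over 14253 tested genes with at least 20 neighbours. These are not like for like. The wider set includes genes of low level, while the enzymes' windows left out other enzymes and could hold fewer than 20 genes. Of the 16 enzymes lower in vehicle, 13 had a neighbour median below 0, and all of the 10 higher enzymes had one above 0. In Dex, ACSL1, ACSL5, ACADM, ACADVL, ACAA2, ECI1 and ETFA were called lower but had a neighbour median above 0. The other enzymes called lower in Dex had one below 0, and those called higher had one above 0. The same shares over all called genes were not taken. ACAT1, at -0.76 in vehicle, lay among genes with a median of -0.72, and MDH1, at -0.47, among genes with a median of -0.62. SUCLA2, at -0.85, had a neighbour median of -0.56, and the other genes of chromosome 13 had a median of -0.53 in vehicle. All 6 enzymes of chromosome 2 (IDH1, SUCLG1, MDH1, ACSL3, HADHA and HADHB) were lower, and the 978 other genes tested there had a median of -0.30. Within 5 Mb, however, ACSL3 and SUCLG1 had neighbour medians of -0.17 and -0.08 in vehicle, nearer to 0 than their own differences.

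Other enzymes stood away from their surroundings. In Dex 9 of the 43 lay over 0.3 from their neighbour median, 8 of them below it, and in vehicle 8 did, 5 of them below it. The share of all genes at such a distance was not taken, so these counts do not show whether the enzymes are unusual. SUCLG1, ACSL3, EHHADH and ECI1 did so in both treatments. ECI1 stood at -0.37 in vehicle among genes with a median of 0.34, and at -0.56 in Dex among genes at 0.17. In Dex, ACSL1 was at -0.47 among genes with a median of 0.18, ACADM at -0.35 among genes at 0.20 and ACSL5 at -0.28 among genes at 0.12. IDH2, at 0.42, and EHHADH, at 0.40, had neighbour medians of 0.05 and 0.07 in vehicle. Neighbouring enzymes such as HADHA and HADHB share most of their neighbours, the correlations carry no p, and the part of genome position in the genotype differences was not tested.

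**Figure D5:**
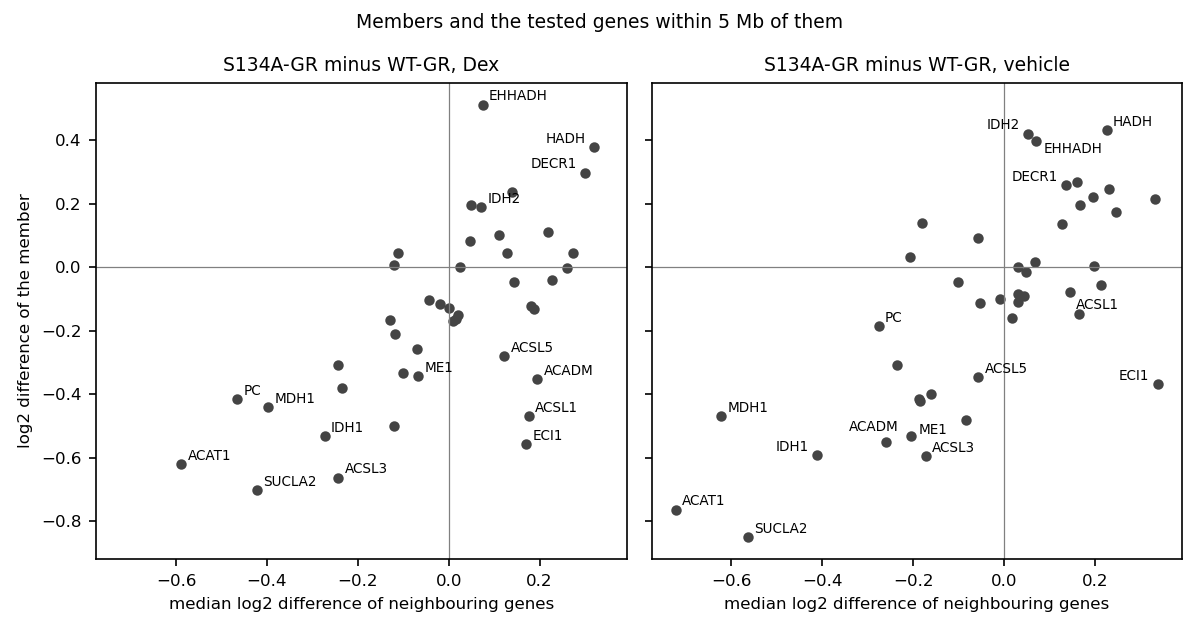
The log2 difference between S134A-GR and WT-GR cells of each of the 43 enzymes against the median log2 difference of the tested genes within 5 Mb of it, in Dex (left) and in vehicle (right). Most points run from ACAT1 and SUCLA2 at the lower left to HADH at the upper right, and ECI1 lies far below its neighbours in both.

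Other genes of the same pathways gave context. In S134A-GR cells Dex changed 0 of 21 tested genes beside the TCA cycle, 1 of 25 further fatty acid oxidation genes and 1 of 17 peroxisomal ones, and in WT-GR cells 3, 6 and 5, which is 14.3%, 24% and 29.4%. Over all genes 15.7% were called in S134A-GR cells and 27.9% in WT-GR cells, so these shares lay below or near that of all genes. The members that passed were CPT1A and ACOX2 in S134A-GR cells. CPT1A, the outer-membrane carnitine palmitoyltransferase that is the entry step of mitochondrial fatty acid oxidation, had 5969, 6013 and 6133 normalized counts in S134A-GR Dex against 4212, 4129 and 4179 in S134A-GR vehicle. In WT-GR cells it had 8930, 8411 and 9124 in WT-GR Dex against 6606, 6178 and 6153 in WT-GR vehicle. It rose by 0.53 ± 0.05 in S134A-GR cells and 0.48 ± 0.05 in WT-GR cells (limma adjusted p = 1.12e-06 and 3.28e-06). ACOX2, a peroxisomal oxidase of branched-chain substrates, fell by 0.41 in S134A-GR cells and by 0.30 in WT-GR cells (limma adjusted p = 0.000216 and 0.00206). In WT-GR cells PCK2, the mitochondrial phosphoenolpyruvate carboxykinase, and CRAT, carnitine acetyltransferase, rose by 0.32 and 0.31 (limma adjusted p = 0.00187 and 0.00259).

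Between genotypes, 15 of 21 genes beside the TCA cycle were called in Dex (3 higher and 12 lower) and 13 in vehicle (4 higher and 9 lower). Of the further fatty acid oxidation genes, 19 of 25 were called in Dex (10 higher and 9 lower) and 18 in vehicle (11 higher and 7 lower), and of the peroxisomal genes 10 and 7 of 17. As shares these are 71.4%, 76% and 58.8% in Dex and 61.9%, 72% and 41.2% in vehicle, beside 49.7% and 50.5% of all genes. By direction, 23.4% of all genes were called higher and 26.3% lower in Dex, and 23.8% and 26.7% in vehicle. DLAT, a subunit of pyruvate dehydrogenase, differed by -1.02 in vehicle (limma adjusted p = 2.69e-09), and SDHD, a subunit of succinate dehydrogenase, by -0.86 in Dex (limma adjusted p = 2.17e-08). Both lie within 5 Mb of ACAT1 on chromosome 11, where the neighbouring genes had a median of -0.59 in Dex and -0.72 in vehicle. The part of position in these differences was not tested. CPT1C, the neuronal carnitine palmitoyltransferase, was higher by 0.87 in Dex and 0.98 in vehicle (limma adjusted p = 5.09e-05 and 1.64e-05). The differences of ACADL and OGDHL were larger in size but rest on low levels, with means of 10.2 to 38.3 and 14.6 to 39.9 normalized counts over the 4 groups. PCK1 and ACSL6 were too low to be tested.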

How the data were processed

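TruSeq mRNA libraries were read as 75-base pairs, per the labels' protocols. The deposited values are a normalized signal, here called normalized counts. The authors divided read counts by a size factor per library, as the values show: 100% were whole multiples of 1 read within 0.01 reads. FastQC 0.11.7, featureCounts, Subread, DESeq2 1.22.2 and hg38 are named in the submitters' processing notes without a role, and the aligner is not given in the sources used here. The Dex files list 26485 names for 19907 values, and 8 lines carry the vehicle name. They were given the vehicle names by line order, which correlated with vehicle at r = 0.982 to 0.989 across genes, against -0.0056 to -0.0036 by name. Even counts were 58.2 to 67.5% of counts from 1 to 20. WT-GR Dex replicates 2 and 3 stood highest, at 67.5 and 66.8%, against 58.2 to 62.6% in the rest. They had 193 and 210 genes with 1 read, against 352 to 409 in the rest. The 3 WT-GR Dex libraries were therefore not alike in this, and every comparison with that group rests on them. Replicates 2 and 3 were left out together in 1 alternative fit, and the cause was not tested.

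limma 3.58.1 with a mean-variance trend was fitted to log2(value + 1) of the 15957 genes that reached 10 in 3 or more libraries, over all 12 libraries, with 1 coefficient per group. This scale understates changes of low genes. Tests were two-sided, adjusted by Benjamini-Hochberg over all genes, with 0.05 as the threshold. edgeR 4.0.16 and DESeq2 1.42.0 on recovered reads, other scalings, pseudocounts and filters, library weights, a replicate block and the omission of libraries were alternatives. Fits were tested on simulated data.

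The enzymes and the other lists were chosen with earlier results of these data known. Named were up to 12 enzymes per comparison with the largest differences among those called (values per library for up to 5), the IDH, ME and ACSL sets and CPT2, and up to 4 other pathway genes. Positions, exon lengths and GC content came from GENCODE 29 (GRCh38), start windows from RefSeq.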

Additional observations from a re-analysis of the deposited data

How the results depend on the processing

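None of the 67 calls of an enzyme in the 4 comparisons with calls changed sign under the 24 alternatives. For Dex in WT-GR cells, 9 enzymes and 4455 of all genes were called; fitting only the compared groups gave 4 and 2490, library weights gave 18 and 7113, leaving out WT-GR Dex replicates 2 and 3, which leaves 1 library in that group and assumes that it varies like the other groups, gave 18 enzymes, and leaving out 1 library gave 4 to 17 enzymes and 2963 to 6094 genes. Libraries scaled to equal totals gave 5 higher and 7 lower enzymes. For Dex in S134A-GR cells, 6 enzymes and 2513 genes were called. Fitting only the compared groups gave 7 and 3439, and library weights gave 10 and 5116. Leaving out 1 library gave 2 to 7 and 1798 to 3045, and equal totals gave 2 higher and 2 lower enzymes. For the difference of responses, 0 enzymes and 66 genes were called; median centring and DESeq2 each gave 1 enzyme, library weights 8 and leaving out WT-GR Dex replicates 2 and 3, again with 1 library in that group, also 8, while DESeq2 gave 504 genes, library weights 2854, omission of the 2 libraries 2550, and leaving out 1 library 0 to 6 enzymes and 26 to 1604 genes. Leaving out 1 library gave 19 to 29 enzymes and 6775 to 8809 genes for genotype in vehicle, and 23 to 27 and 6836 to 8166 in Dex. The cause of these shifts was not tested.

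With the replicate number as a block, 2 enzymes were called for Dex in S134A-GR cells and 25 genes for the difference of responses; the numbers did not pair the libraries, since the deviations of the 18 same-numbered pairs correlated at -0.0852 to 0.0551 and 3 of 12 libraries were closest to their own number. For Dex in WT-GR cells, 4 enzymes were called without WT-GR Dex replicate 1 or WT-GR vehicle replicate 1 or 2, and 17 without WT-GR Dex replicate 3.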
